A study of Mus musculus with 7 samples.

Results

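The genes described here are 10 components of the circadian clock, Clock, Npas2, Per2, Per3, Cry1, Cry2, Ciart, Nr1d1, Nr1d2 and Dbp, taken by their symbols from a deposited table of 17732 genes. RNA came from the prefrontal cortex, its medial part, of wild-type males of the inbred strain 129SvEv, collected once a remote memory had been retrieved. The labels name the groups only as CFC, with 3 libraries, and SC, with 4 libraries, and apart from titles and library names they differ in no other label. The authors' deposited table gives each gene a mean normalized count over the libraries, a log2 fold change between the groups, its standard error (SE, printed after ±) and DESeq2 p-values. It holds no value of a single library, and it does not state which group is the numerator, so a difference is given only as positive or negative. The age of the mice, their light cycle, the clock time at which tissue was taken and whether a library is 1 animal are not given in the sources used here.

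In the mammalian clock, CLOCK or its relative NPAS2 pairs with BMAL1 (Arntl) and switches on genes that carry E-boxes, among them the Per, Cry, Nr1d and Dbp genes. The PER and CRY proteins, and CIART (also called CHRONO), then shut that activity down, while the REV-ERB receptors encoded by Nr1d1 and Nr1d2 repress the activators' own genes through a second element, the RORE. In mouse tissues the RNAs of Nr1d1, Dbp, Ciart and the Per genes peak at about the opposite time of day from those of Arntl and Npas2, and the forebrain, where NPAS2 is abundant, keeps such a rhythm. Tissue taken at different times in the groups could appear as a difference of opposite sign in these sets of genes, but need not. For this reason the arms of the clock were set side by side. The arms are not sets by phase, since the repressor Cry1 is grouped below with the opposite-phase genes. The comparison therefore cannot show whether sampling times matched.

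The stretches below show matches to E-box and D-box elements near the starts of some of these genes. They come from RefSeq windows on GRCm38.p6 that start 250 bases before and end 50 bases after each annotated start. Each is upstream of the start and is written 5′ to 3′ on the gene's strand, with the matched element in capitals. For Nr1d1 and Cry2 the bases after that start were found in no GENCODE M21 transcript of the gene. Positions given for these genes therefore rest on the RefSeq start alone. Windows were matched for 9 of the 10 members, all but Per2. The elements searched on both strands were the E-box CACGTG, the E'-box CACGTT (read as AACGTG on the other strand), the D-box TTATGTAA or TTACGTAA, the RORE TAGGTCA or TGGGTCA and the cyclic AMP response element TGACGTCA, and none of the matches printed overlaps another.

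Ciart, chr3:95882253-95882358, minus strand: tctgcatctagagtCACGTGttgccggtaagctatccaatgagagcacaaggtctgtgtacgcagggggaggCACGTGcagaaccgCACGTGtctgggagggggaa
Cry1, chr10:85185095-85185147, minus strand: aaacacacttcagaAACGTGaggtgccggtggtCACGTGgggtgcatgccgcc
Nr1d1, chr11:98775386-98775419, minus strand: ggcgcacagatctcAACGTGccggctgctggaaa
Per3, chr4:151044802-151044884, minus strand: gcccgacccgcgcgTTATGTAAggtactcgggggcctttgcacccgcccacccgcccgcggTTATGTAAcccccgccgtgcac

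The window of Ciart held 3 E-boxes, which began 116, 58 and 44 bases before the start. Cry1 held an E'-box at 79 and an E-box at 60 bases, Nr1d1 an E'-box at 28 bases and Cry2 an E'-box at 166 bases before the start. Per3 held a pair of D-boxes, the element bound by DBP and its relatives, at 205 and 158 bases. Clock, Npas2, Dbp and Nr1d2 held none of the searched elements in these windows, which says nothing about elements elsewhere in those genes. Of all 32851 windows, 7.15% held an E-box, 4.68% an E'-box, 1.06% a D-box, 6.45% the RORE and 1.79% the cyclic AMP element.

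All 10 genes were well measured in this tissue. In the authors' deposited table their mean normalized counts ran from 290.8 for Cry1 to 3390 for Cry2, and the lowest count that received an adjusted p-value was 34.9. Divided by the length of all annotated exons in GENCODE M21, the highest level was that of Nr1d1, at 958 mean counts per kb. Cry2 followed at 536, Nr1d2 at 473 and Dbp, the D-box activator, at 459 mean counts per kb. The activator Npas2 stood at 289 and Per2 at 204 mean counts per kb. Ciart was at 193, Per3 at 192, Clock at 176 and Cry1 at 87.1 mean counts per kb. Per kb of exon the order thus ran with REV-ERB alpha (Nr1d1) at the top and a cryptochrome at the bottom. This order depends on the division, which counts all annotated exons whether or not they are used in this tissue. By mean count alone Cry2 (3390) stood above Nr1d1 (2949), and Clock (2415) stood above Npas2 (1384). These levels pool both groups and have no error, so neighbours such as Per2, Ciart and Per3 cannot be ordered.

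**Figure D1:**
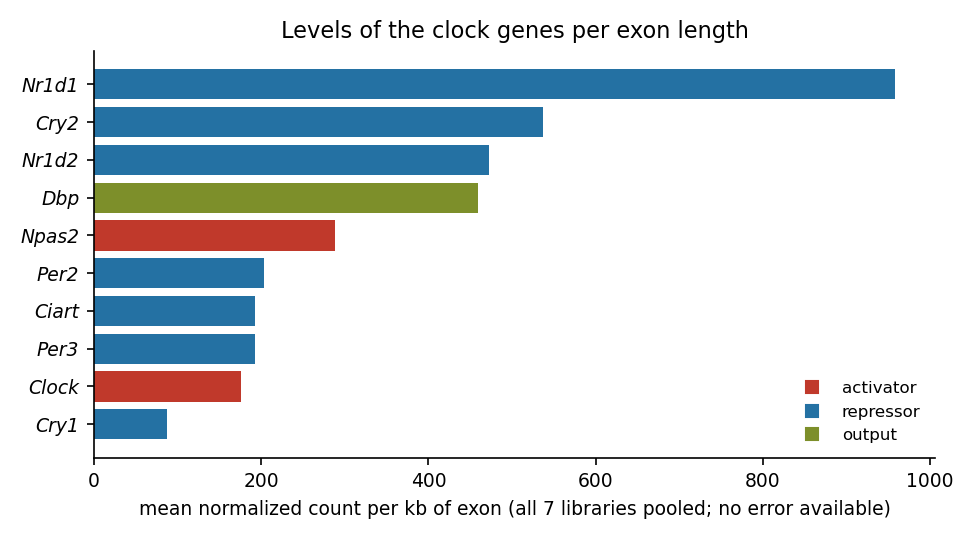
Mean normalized count per kb of annotated exon for the 10 clock genes (horizontal axis, linear from 0), pooled over the 7 libraries with no error available; colour gives the role. Nr1d1 is highest at 958 and Cry1 lowest at 87.1.

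Exons of 3 members overlap those of a gene on the opposite strand, and the strand setting of the counting is not given in the sources used here, so reads of each pair may be mixed. Dbp shares 539 of its 2993 exon bases with Sphk2, Cry2 shares 295 of 6320 with D930015M05Rik, and Nr1d1 shares 263 of 3077 with Thra. In the authors' deposited table the partner Sphk2 had a mean count of 390 and a log2 fold change of 0.10 ± 0.10 (SE). Thra, the thyroid hormone receptor alpha gene, had a mean count of 12281 and a log2 fold change of -0.03 ± 0.07 (SE) in the authors' deposited table.

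No difference between CFC and SC was detected in any of the 10 clock genes. The count was 0 of 10 at a DESeq2 adjusted p-value under 0.05, beside 0.513% of the 13060 genes tested (67 genes), and also 0 of 10 at an unadjusted p-value under 0.05, beside 8.10% of all tested genes (1058 genes). With so low a background a count of 0 among 10 genes is not particular to the clock. In the authors' deposited table, 4 of the members were positive and 6 negative, and the median log2 value was -0.03 over the members and -0.0017 over all genes tested. The difference was smaller than its own standard error in 6 of the 10 members, as it was in 66.9% of all genes tested. In bulk tissue fewer cells of a type and less RNA per cell cannot be told apart. Opposite changes in different cells would also be missed here where they cancel.

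Among the activators, Npas2 (ENSMUSG00000026077, chr1:39193731-39363236) was the member with the smallest p-value. Its log2 fold change was -0.14 ± 0.08 (SE), an unadjusted p-value of 0.0706 and an adjusted p-value of 0.744 by DESeq2 in the authors' deposited table. Clock (ENSMUSG00000029238, chr5:76209868-76304792), which encodes the other partner of BMAL1, had the opposite sign. Its log2 fold change was 0.09 ± 0.06 (SE) and an adjusted p-value of 0.859 by DESeq2 in the authors' deposited table. The 95% confidence intervals ran from -0.28 to 0.01 for Npas2 and from -0.03 to 0.21 for Clock, computed from the authors' deposited table.

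The period genes encode the PER proteins, which carry the cryptochromes into the nucleus. Per2 (ENSMUSG00000055866, chr1:91415982-91459324) had a log2 fold change of 0.02 ± 0.09 (SE), and an adjusted p-value of 0.999 by DESeq2, in the authors' deposited table. Per3 (ENSMUSG00000028957, chr4:151003652-151044665), the gene with the D-boxes shown above, stood at -0.12 ± 0.08 (SE), with an adjusted p-value of 0.875 by DESeq2 in the authors' deposited table. Both of their 95% intervals contain 0, that of Per2 from -0.16 to 0.20 and that of Per3 from -0.28 to 0.04.

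The cryptochromes are the strongest repressors of the E-box. Cry2 (ENSMUSG00000068742, chr2:92403646-92434043) had a log2 fold change of -0.03 ± 0.06 (SE) in the authors' deposited table. Cry1 (ENSMUSG00000020038, chr10:85131700-85185064), the least abundant member, stood at -0.05 ± 0.15 (SE) in the authors' deposited table. The 95% interval of Cry2 was among the narrowest, from -0.15 to 0.08, and that of Cry1 was the widest, from -0.35 to 0.25. Ciart (ENSMUSG00000038550, chr3:95878503-95882251), whose window holds the 3 E-boxes, had a log2 fold change of -0.03 ± 0.11 (SE) in the authors' deposited table.

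The REV-ERB receptors and the output factor were not called either. Nr1d1 (ENSMUSG00000020889, chr11:98767932-98775333) had a log2 fold change of 0.08 ± 0.08 (SE), and an adjusted p-value of 0.971 by DESeq2, in the authors' deposited table. Nr1d2 (ENSMUSG00000021775, chr14:18204054-18239127) had the smallest difference of all members, 0.0067 ± 0.07 (SE) in the authors' deposited table. Dbp (ENSMUSG00000059824, chr7:45705088-45710203), known for a large daily swing of its RNA in many tissues, stood at -0.04 ± 0.08 (SE) in the authors' deposited table. On the linear scale the 95% interval of Dbp ran from 0.875-fold to 1.08-fold and that of Nr1d1 from 0.950-fold to 1.18-fold. The adjusted p-values of Cry1, Cry2, Ciart, Nr1d2 and Dbp were each 0.999 by DESeq2 in the authors' deposited table.

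**Figure D2:**
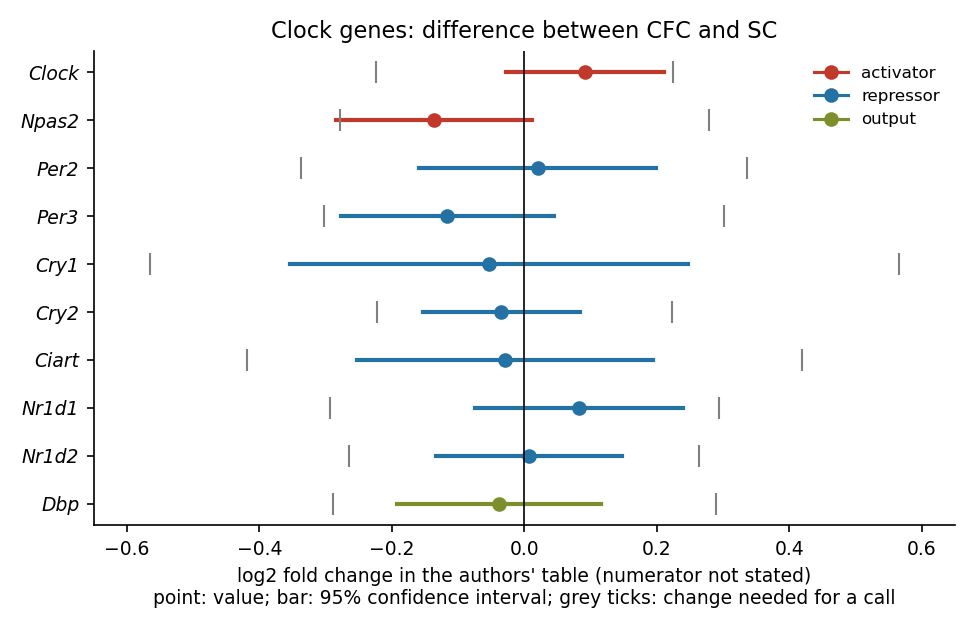
Log2 fold change between CFC and SC for each clock gene (horizontal axis; the authors' table does not state the numerator), with bars for the 95% confidence interval and colours for the role. Grey ticks mark the change each gene would have needed for a call, and no point reaches its tick.

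These intervals bound how far the groups could differ. The 95% interval lay within a 1.3-fold change either way in all 10 members, and the end farthest from no change was the lower one of Cry1, at 0.782-fold. The largest unadjusted p-value that passed in the authors' table corresponds to a Wald statistic of 3.68. At their own standard errors, Cry2 and Clock would therefore have needed a change of 1.17-fold for a call. Dbp would have needed 1.22-fold and Nr1d1 1.23-fold. The demand was highest for Cry1, at 1.48-fold, and for Ciart, at 1.34-fold, so smaller observed changes in these genes would not have been called. Over the 7287 genes within the members' range of mean counts the median absolute log2 fold change was 0.06, and over the members it was 0.05.

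Set side by side, neither arm of the clock had a sign of its own. Of the members, the activators Clock and Npas2 had a median log2 fold change of -0.02 and the 7 repressors one of -0.03. Within each arm the signs were mixed, with 1 positive and 1 negative activator and 3 positive and 4 negative repressors. With the other genes of each arm added, the activating arm (Clock, Npas2, Arntl, Arntl2, Rora and Rorb) had a median of -0.02, with 2 positive and 4 negative genes. The repressing arm (the Per and Cry genes, Ciart, Nr1d1, Nr1d2, Bhlhe40 and Bhlhe41) had a median of 0.0084, with 6 positive and 4 negative genes. The repressing median thus lay 0.03 above the activating one on the log2 scale, with the sign reversed (-0.0064) over the members alone, and no test of this difference was made.

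Grouping by the known time of the peak gave a small difference as well. The 9 genes that peak in the light phase or at its end (Dbp, Nr1d1, Nr1d2, Per1, Per2, Per3, Ciart, Tef and Bhlhe41) had a median log2 fold change of 0.0067, with 5 positive and 4 negative. The 5 genes of the opposite phase (Arntl, Clock, Npas2, Cry1 and Nfil3) had a median of -0.04, 2 of them positive and 3 negative. The difference of medians was 0.05, and with means in place of medians it was -0.02. None of these genes was called. The genes were placed in these lists from general knowledge of their phase, though with earlier results of these data known.

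Paralogs were compared by the difference of their log2 fold changes, with an interval that allows for any correlation between the estimates, because the deposited table holds no covariance. Clock minus Npas2 was 0.23, with a 95% interval from -0.04 to 0.50. Per2 minus Per3 was 0.14, from -0.20 to 0.48, and Nr1d1 minus Nr1d2 was 0.08, from -0.22 to 0.37. Cry1 minus Cry2 was -0.02, from -0.44 to 0.40. In all 4 pairs the interval contains 0, and its width leaves room for differences between the paralogs as large as these ends. If the estimates for Clock and Npas2 were independent, their interval would run from 0.04 to 0.42 and exclude 0.

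The standard errors of most members were large for their abundance. The deposited standard error, which reflects the spread within the groups, was divided by the running median over genes of similar mean count. This ratio had a median of 1.14 over the 10 members, beside 0.998 over all genes tested, and it was above the 75th percentile of all genes in 8 of the 10 and above the 90th in 4. It was highest for Cry1 (1.31), Nr1d1 (1.29), Per2 (1.253) and Per3 (1.236). Ciart and Nr1d2 each stood at 1.14, Dbp at 1.10 and Npas2 at 1.06. Clock (0.962) and Cry2 (0.980) lay just under the genes of their abundance. The lowest ratio of the members was thus that of the activator Clock. Repressor genes, which are 7 of the 10 members, made up the 4 highest.

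**Figure D3:**
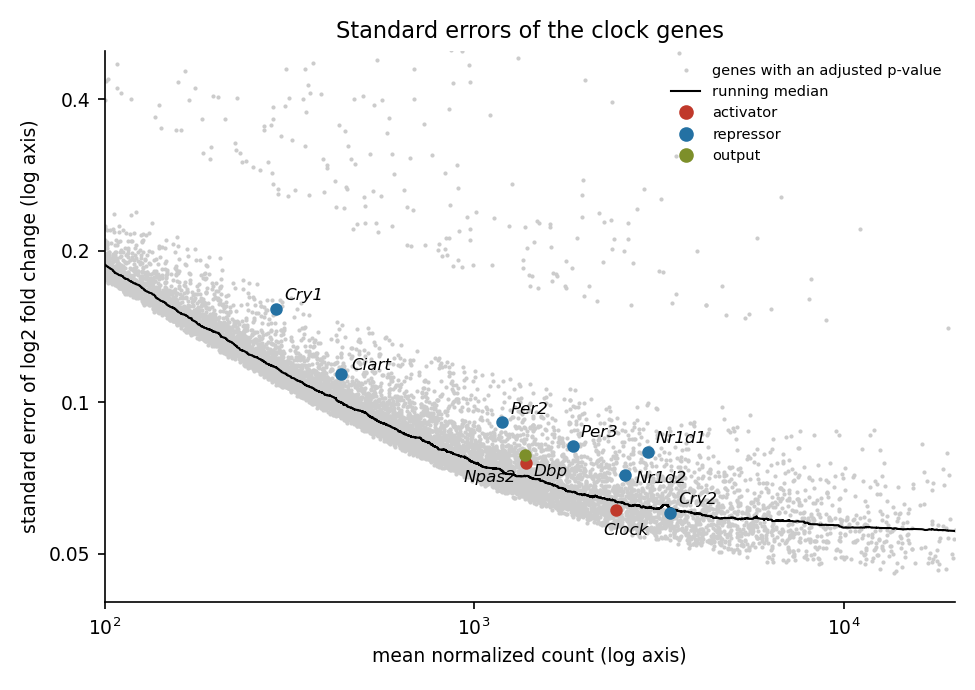
Deposited standard error of the log2 fold change (vertical, log axis) against mean normalized count (horizontal, log axis) for the clock genes in colour and other tested genes in grey, shown for mean counts from 100 and standard errors up to 0.5. Most clock genes sit above the black running median, with Clock and Cry2 just under it.

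In other parts of the clock machinery the ratio lay nearer to 1, a difference that was not tested. The median ratio was 0.971 over the 11 kinases, ligases and other regulators of PER and CRY, and 0.987 over the 8 chromatin partners, with 3 of these 19 genes above the 75th percentile. Over the 10 genes of the repressing arm it was 1.24, and its non-members Per1, Bhlhe40 and Bhlhe41 stood at 1.38, 1.36 and 0.987. In the wider activating arm, with a median of 1.03, Rora at 3.56 and Rorb at 1.42 lay above every gene of the repressing arm. The median ratio was 0.991 over the daily output genes and 1.12 over Dbp, Tef, Hlf and Nfil3. Other rhythmic genes of the clock lists went both ways. Arntl at 0.929, Usp2 at 0.938 and Nfil3 at 0.968 lay under 1, and Tef at 1.13 and Tsc22d3 at 1.27 lay above it. The glucocorticoid-induced and activity-induced lists had median ratios of 1.235 and 1.234, above that of the members. A few genes had far larger ratios, namely Rora at 3.56 and Hlf at 2.50. Rora, Rorb and Hlf were singled out after their values were seen. The mature oligodendrocyte markers had a median ratio of 6.73 and the striatal markers one of 3.32. Deep-layer, upper-layer and astrocyte markers, at 1.42, 1.35 and 1.29, were also above the members. Excitatory, inhibitory, endothelial and microglia markers, at 1.11, 1.07, 1.02 and 0.995, were below them. The part of these cell types in the clock genes' spread was not tested. Whether 1 library carries the spread was not tested either, since no value per library was analysed.

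**Figure D4:**
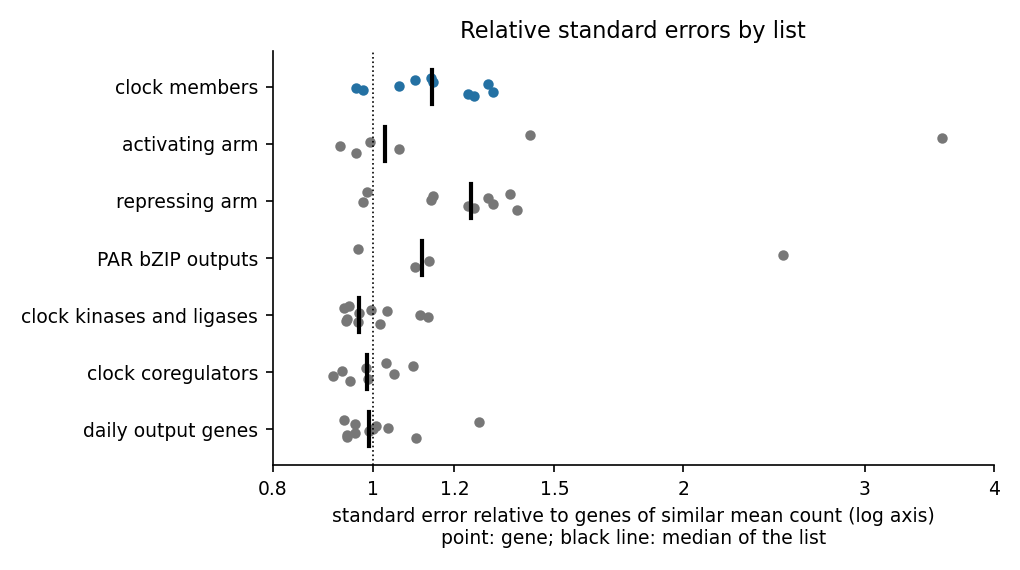
Standard error relative to genes of similar mean count (horizontal, log axis) for each gene of the clock lists, with the list's median as a black line. The 10 members have a median of 1.14 and the repressing arm 1.24, and kinases, ligases and coregulators lie near 1.

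The wider clock, 40 further genes of which 39 received an adjusted p-value, held no call either. Of these 39 genes, 4 passed an unadjusted p-value of 0.05, a share close to the 8.10% of all tested genes. All 4 were positive, as were 596 of the 1058 genes that passed over the whole table. Of the 40 genes, 23 were positive. The first was Per1 (ENSMUSG00000020893), the period gene that light, stress hormones and neuronal activity induce most directly. Its log2 fold change was 0.23 ± 0.09 (SE), an unadjusted p-value of 0.00945 and an adjusted p-value of 0.356 by DESeq2 in the authors' deposited table. Tsc22d3, a glucocorticoid-induced gene with a daily rhythm, stood at 0.29 ± 0.11 (SE) and an adjusted p-value of 0.328 by DESeq2 in the authors' deposited table. The kinase gene Gsk3b and the histone methyltransferase gene Kmt2a stood at 0.15 ± 0.07 (SE) and 0.13 ± 0.06 (SE), and the authors' deposited table gives them DESeq2 adjusted p-values of 0.467 and 0.561.

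The value of Per1 lay farther from that of Per3 than from that of Per2. The pairs with Per1 were added after its value was seen, so they are descriptions. Per1 minus Per3 was 0.35, with a widest 95% interval from 0.01 to 0.68, and Per1 minus Per2 was 0.21, from -0.14 to 0.56. The levels of glucocorticoid-induced and activity-induced genes are given beside this value because both kinds of signal act on Per1. Of 11 glucocorticoid-induced genes 9 were positive, with a median of 0.18 and none called. Tsc22d3, named above, was among the 3 that passed an unadjusted p-value of 0.05, beside 8.10% of all tested genes. Of 13 activity-induced genes 11 were positive, with a median of 0.09, 5 passed an unadjusted p-value of 0.05 and 1, Nr4a3, was called, beside 0.513% of all tested genes. That call was lost with a Bonferroni adjustment and with a null hypothesis of at most 1.2-fold. The part of either set in the value of Per1 was not tested.

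None of the remaining core genes passed an unadjusted p-value of 0.05. Arntl, which encodes BMAL1, had a log2 fold change of -0.04 ± 0.08 (SE), and its 95% interval ran from -0.20 to 0.12 in values from the authors' deposited table. The receptor genes Rora and Rorb, whose products activate through the RORE, stood at 0.06 ± 0.23 (SE) and -0.14 ± 0.11 (SE) in the authors' deposited table. Bhlhe40 and Bhlhe41, the DEC repressors, were at 0.10 ± 0.08 (SE) and 0.01 ± 0.08 (SE) in the authors' deposited table. Tef and Hlf, the relatives of Dbp, were at -0.10 ± 0.06 (SE) and -0.05 ± 0.15 (SE) in the authors' deposited table. Nfil3, which represses through the D-box, had a mean count of only 86.0 and a log2 fold change of 0.25 ± 0.19 (SE) in the authors' deposited table.

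Regulators of clock protein turnover and genes with daily output had members of both signs. Over the 11 kinases, ligases and other regulators the median log2 fold change was 0.0093, with 6 positive and 5 negative genes and values from -0.12 for Usp2 to 0.15 for Gsk3b. The 8 chromatin partners had a median of 0.04, with 5 positive and 3 negative genes. The 12 daily output genes had a median of 0.03, with 7 positive and 5 negative genes and values from -0.14 to 0.29. Among them the cold-inducible RNA-binding protein gene Cirbp, which follows body temperature, was at 0.0037 ± 0.07 (SE) in the authors' deposited table. Fmo2, at a mean count of 17.9, received no adjusted p-value.

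**Figure D5:**
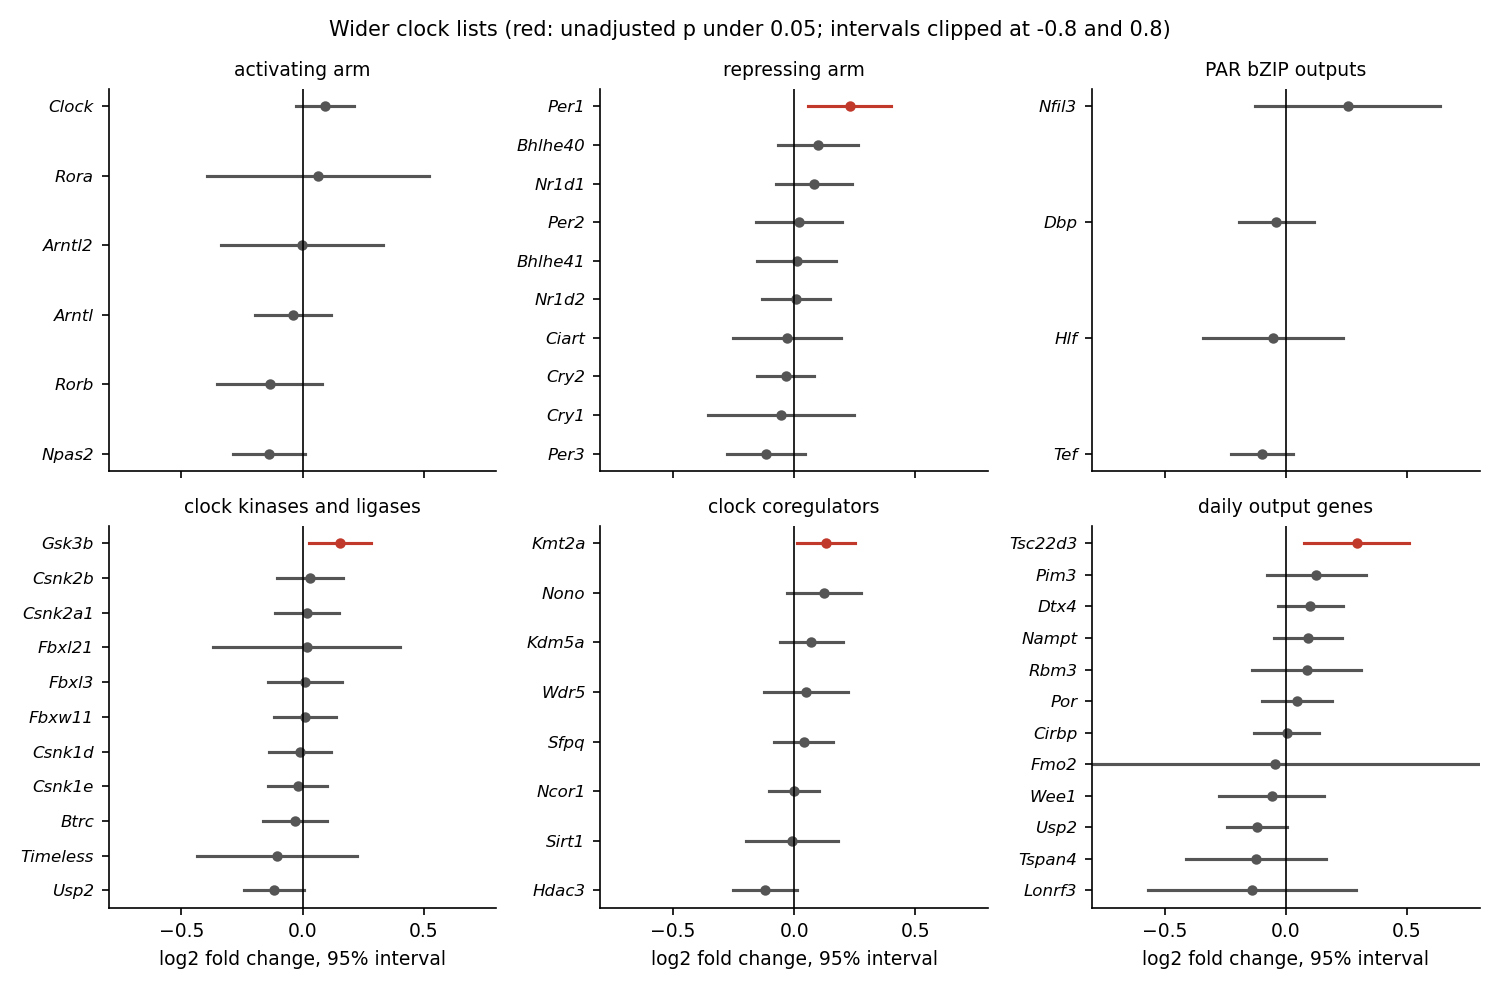
Log2 fold change (horizontal axis) with its 95% interval for every gene of the 6 clock lists; red marks an unadjusted p-value under 0.05 and intervals are drawn up to 0.8 either way. The 4 red genes, Per1, Gsk3b, Kmt2a and Tsc22d3, are positive, and none passed the adjusted threshold.

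The excitatory neuron genes Slc17a7 (34713 mean counts) and Neurod6 (2316 mean counts) were abundant in the authors' deposited table. Their abundance cannot tell the medial prefrontal cortex from other cortex. Markers of cortical depth differed between the groups while no clock gene was called. The marker lists and the clock lists were chosen with earlier results of these data known, so this contrast is only a description. Of 8 deep-layer markers all were positive and 5 called, beside 0.513% of all tested genes, their median being 0.53 on the log2 scale. Of 6 upper-layer markers all were negative and 2 called, with a median of -0.29. These upper-layer calls were lost with a Bonferroni adjustment and with a null hypothesis of at most 1.2-fold, which left 2 deep-layer calls. All 8 oligodendrocyte markers were positive, from 0.95 to 1.67, with none called. All 8 of them passed an unadjusted p-value of 0.05, beside 8.10% of all tested genes. The 8 striatal markers were also all positive, with a median of 0.73 and 1 called, Drd1. Astrocyte, microglia and endothelial markers had medians of -0.07, -0.13 and -0.16 and inhibitory neuron markers one of 0.0032, with none called. Of the 4 excitatory markers, with a median of -0.16, 1 was called, Camk2a. The calls of Drd1 and Camk2a were lost with the null hypothesis of at most 1.2-fold. The part of these differences in the values of the clock genes was not tested.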

How the data were processed

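Polyadenylated RNA of 7 libraries (CFC 3, SC 4) was made into libraries with a KAPA kit, per the labels' protocols. The submitters' processing notes name Trimmomatic, Subread, DESeq2 and the build mm10, with no versions or settings. The authors deposited a mean normalized count (a signal averaged over libraries), a log2 fold change with its standard error, a Wald score, and an unadjusted and an adjusted p-value per gene, per the file headers. The Wald score equalled the log2 value over its standard error in all 17732 genes (within 1e-06). No value per library was analysed, so depth per library is unknown and no result could be checked against single libraries.

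Calls use the authors' DESeq2 adjusted p-value under 0.05. From the deposited columns, 95% intervals (normal quantile times the standard error), running medians of the standard error over 401 genes, paralog differences and counts per list were computed with Python 3.11.15, pandas 2.3.3 and scipy 1.17.1. The p-value adjustments, the null hypothesis of at most 1.2-fold and the ratio of standard errors were tested on simulated data. The intervals, paralog differences and counts per list were not. The 10 members and the lists were chosen with earlier results of these data known. Named genes are the members, 9 fixed core genes, clock-list genes with an unadjusted p-value under 0.05, and called genes of other lists where a result turns on them; Arntl2, Usp2, Cirbp, Fmo2, Slc17a7 and Neurod6 were named in addition. Some genes of the fixed lists are not reported here. Exon lengths, gene positions and overlaps come from GENCODE M21 (GRCm38), which held 17726 of the table's 17732 gene IDs. Promoter windows come from RefSeq on GRCm38.p6.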

Additional observations from a re-analysis of the deposited data

How the results depend on the processing

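The count of 0 called members, and that of 0 called genes over the 50 genes of the clock lists, held with an adjusted p-value under 0.1, no filter on the mean count, a mean count of at least 100, a Bonferroni adjustment and a null hypothesis of at most 1.2-fold. An unadjusted p-value under 0.01 also left 0 members. The difference between the repressing and activating medians was 0.03 on the log2 scale, 0.05 with means, -0.0064 with the members alone and 0.01 without the ROR receptors, Bhlhe40 and Bhlhe41, so its sign depended on the genes entered. That between light-phase and opposite-phase genes was 0.05 with medians and -0.02 with means. On the Wald scale the differences were 0.36 and 0.44. The median ratio of standard errors was 1.13 with running medians over fewer or more genes. If the estimates for Clock and Npas2 were independent, their difference of 0.23 would have a 95% interval from 0.04 to 0.42, which excludes 0; no other of the 4 pairs changed. Counts over the lists by time of the peak, of induced genes and of cell type markers were also compared. Of these, 56 were within 1.5 times their first value, 8 were lower and 1 was higher. Most of the 56 were counts of 0 that stayed at 0, and every count that moved was in a list with a call. Under the null hypothesis of at most 1.2-fold, deep-layer calls fell from 5 to 2 and upper-layer calls from 2 to 0. No paired analysis was possible because the table gives no library's own values, and for the same reason no library could be left out. The clock time of sampling is not given in the sources used here, and nor is the group that serves as numerator.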
